A study of Mus musculus with 15 samples.

Results

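The subunits of Polycomb repressive complex 2 (PRC2) were followed in mouse embryonic stem cells (mESCs) in which the cohesin subunits STAG1 and STAG2 had been knocked out or depleted. The members were taken by gene symbol and not by their values: Ezh1, Ezh2, Eed, Suz12, Rbbp7, Mtf2, Phf1, Phf19, Jarid2 and Aebp2, 10 of the 23412 genes in the gene counts. All 10 passed edgeR's filter on low counts, together with 14508 genes in all. PRC2 is the enzyme complex that methylates lysine 27 of histone H3, and its trimethyl mark keeps developmental genes silent in stem cells. A core of a catalytic subunit (EZH2 or its paralogue EZH1), EED, SUZ12 and a histone-binding RBBP protein joins accessory subunits in one of 2 forms. PRC2.1 carries a Polycomb-like protein (MTF2, PHF1 or PHF19), and PRC2.2 carries JARID2 and AEBP2.

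Polyadenylated RNA of 15 libraries was counted per gene, 3 replicates in each of 5 conditions, all from the male mESC line v6.5 grown on gelatin. Wild-type, Stag1-/- and Stag2-/- cells received siGLO as a transfection control, and wild-type and Stag2-/- cells received siStag1, an siRNA against Stag1, so that Stag2-/- siStag1 cells lacked STAG2 and were depleted of STAG1. Each well was given 50 nM and collected after 48 h. Each knockout was a single CRISPR clone, and a difference between a knockout and wild-type cells cannot be told apart from a difference between clones. The 3 replicates are cultures of 1 clone or line, as far as the sources used here say, so the p-values measure the spread between cultures. Per library, 14982560 to 19070126 counts fell on genes. Normalized counts below are the counts of a library scaled by edgeR's TMM method to a depth common to all libraries. Stag2 read 663 to 739 normalized counts in Stag2-/- siGLO against 2329 to 2334 in wild-type siGLO, and Stag1 read 353 to 517 in wild-type siStag1 against 2012 to 2288. In Stag2-/- siStag1 Stag1 read 629 to 781, against 1875 to 2204 in Stag2-/- siGLO. Stag1 read 1826 to 2368 in Stag1-/- siGLO, where the transcript remained at the wild-type level, so its count is no check of that label. Changes were called at a Benjamini-Hochberg adjusted p under 0.1 over all genes tested in edgeR's quasi-likelihood test, and 5 of the 7 comparisons share the wild-type siGLO libraries.

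All 10 subunit genes were transcribed in wild-type siGLO cells, at levels that spanned a wide range. Per kilobase of exon, Rbbp7 was highest at 2289 ± 67.0 normalized counts (SD, n = 3), followed by Mtf2 at 1201 ± 74.7 and Suz12 at 1059 ± 26.8. Jarid2 (832 ± 141) and Eed (744 ± 92.6) came next, and their replicates overlapped, whereas those of all other neighbours in this order did not. Ezh2 stood at 570 ± 21.7 and Aebp2 at 202 ± 2.75. Ezh1 (123 ± 8.26), Phf19 (68.3 ± 8.52) and Phf1 (37.1 ± 11.3) closed the order. Among the Polycomb-like proteins, Mtf2 was thus the main transcript in these cells. Per kilobase the lowest places changed with condition. Phf19 replicates overlapped those of Ezh1 in Stag1-/- siGLO (113 ± 15.6 against 121 ± 7.51), and those of Phf1 in Stag2-/- siGLO (32.1 to 41.6 against 21.6 to 46.4). The exons of 6 of the members overlap a gene on the opposite strand, and the sources used here do not give the strand setting of the counting, so that reads of the partners cannot be told apart. The longest overlap was that of Phf1 with Cuta, 1370 of 3486 exonic bases, and the next was that of Mtf2 with Tmed5, 395 of 5698. None of the members shared a stretch of 150 bases with another annotated gene.

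The promoters of Phf19, Suz12, Ezh2, Ezh1 and Mtf2 are shown, because 4 of these genes carried most of the calls described below and Ezh2 is the paralogue of Ezh1 that did not follow it. Each runs from 250 bases before to 50 bases after a RefSeq transcription start on GRCm38.p6, 5′ to 3′ on the strand of the gene, and capitals mark the letters of an E2F-type site (TTTCCCGC, TTTGGCGC, TTTCGCGC or TTTGCCGC on either strand).
Phf19 promoter, chr2:34913927-34914226 (- strand): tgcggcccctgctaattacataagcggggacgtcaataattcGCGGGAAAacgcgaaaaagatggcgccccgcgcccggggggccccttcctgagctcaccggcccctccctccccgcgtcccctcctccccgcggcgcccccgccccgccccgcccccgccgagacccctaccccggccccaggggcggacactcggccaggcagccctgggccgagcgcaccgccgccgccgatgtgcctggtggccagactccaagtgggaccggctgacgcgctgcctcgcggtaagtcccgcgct
Suz12 promoter, chr11:79992856-79993155 (+ strand): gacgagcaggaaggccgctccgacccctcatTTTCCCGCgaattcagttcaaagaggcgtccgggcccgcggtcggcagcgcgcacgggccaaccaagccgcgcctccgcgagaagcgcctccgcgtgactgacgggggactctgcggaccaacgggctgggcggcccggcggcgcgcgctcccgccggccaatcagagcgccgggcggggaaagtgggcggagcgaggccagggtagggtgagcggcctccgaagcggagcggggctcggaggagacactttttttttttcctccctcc
Ezh2 promoter, chr6:47594981-47595280 (- strand): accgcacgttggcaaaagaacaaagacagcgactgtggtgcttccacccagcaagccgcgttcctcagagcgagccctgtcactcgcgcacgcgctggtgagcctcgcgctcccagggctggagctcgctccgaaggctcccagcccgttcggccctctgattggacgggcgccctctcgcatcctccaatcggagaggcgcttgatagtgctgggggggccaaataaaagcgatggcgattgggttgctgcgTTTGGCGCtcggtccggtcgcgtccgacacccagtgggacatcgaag
Ezh1 promoter, chr11:101226414-101226713 (- strand): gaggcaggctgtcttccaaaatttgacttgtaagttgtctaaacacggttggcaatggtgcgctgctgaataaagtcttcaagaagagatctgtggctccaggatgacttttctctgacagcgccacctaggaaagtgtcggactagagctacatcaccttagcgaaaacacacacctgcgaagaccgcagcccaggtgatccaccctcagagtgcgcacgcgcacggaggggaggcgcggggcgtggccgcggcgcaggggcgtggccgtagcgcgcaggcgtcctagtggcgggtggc
Mtf2 promoter, chr5:108065424-108065723 (+ strand): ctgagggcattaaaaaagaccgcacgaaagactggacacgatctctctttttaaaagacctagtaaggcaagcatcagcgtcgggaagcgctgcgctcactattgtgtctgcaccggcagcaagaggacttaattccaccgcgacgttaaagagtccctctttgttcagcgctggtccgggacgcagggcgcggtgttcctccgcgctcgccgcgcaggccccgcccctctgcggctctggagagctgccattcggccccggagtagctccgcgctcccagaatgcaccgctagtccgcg
E2F factors drive genes of the S phase of the cell cycle. An E2F-type match was found in the promoters of Ezh2, Suz12 and Phf19, and in none of the other members, where the same letters occurred in 744 of all 32851 promoters of this length (2.26%). In Ezh2 it started 4 bases after the transcription start, in Suz12 219 bases before and in Phf19 208 bases before, on the opposite strand. The bases G and C made up 64.3% of the Ezh2 promoter, 71.0% of that of Suz12 and 74.3% of that of Phf19. The median over all promoters was 52.7%, and the share of 2.26% was not matched for this content. A CCAAT box was present 3 times in the Ezh2 promoter and once in that of Suz12, and these letters were found in 37.4% of all promoters. These matches are descriptions of letters.

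In Stag1-/- siGLO cells 2 of the 10 members were called against wild-type siGLO, 1 higher (Phf19) and 1 lower (Suz12), where 20.0% of all genes tested were called, 10.1% higher and 9.93% lower. In Stag2-/- siGLO cells 5 were called, 1 higher (Rbbp7) and 4 lower (Ezh1, Suz12, Mtf2 and Phf19), against a background of 28.3% of all genes, 13.9% higher and 14.4% lower. In Stag2-/- siStag1 cells 6 were called, 1 higher (Aebp2) and 5 lower (Ezh1, Eed, Suz12, Mtf2 and Phf19), against 43.9% of all genes, 22.6% higher and 21.3% lower. The median log2 fold change of the 10 members was -0.50 in Stag2-/- siStag1 cells, against 0.01 over all genes, and -0.01 in each knockout with siGLO. In wild-type siStag1 cells no member was called by edgeR or by DESeq2 and none had an unadjusted p under 0.05, where 36 genes in all (0.248%) were called. The members' log2 fold changes in wild-type siStag1 cells lay between -0.17 and 0.16. Repeat analyses with the replicate number as a block called 4 members in Stag1-/- siGLO (30.6% of all genes) and 7 in Stag2-/- siGLO (39.4%), and those that this added are named below.

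**Figure D1:**
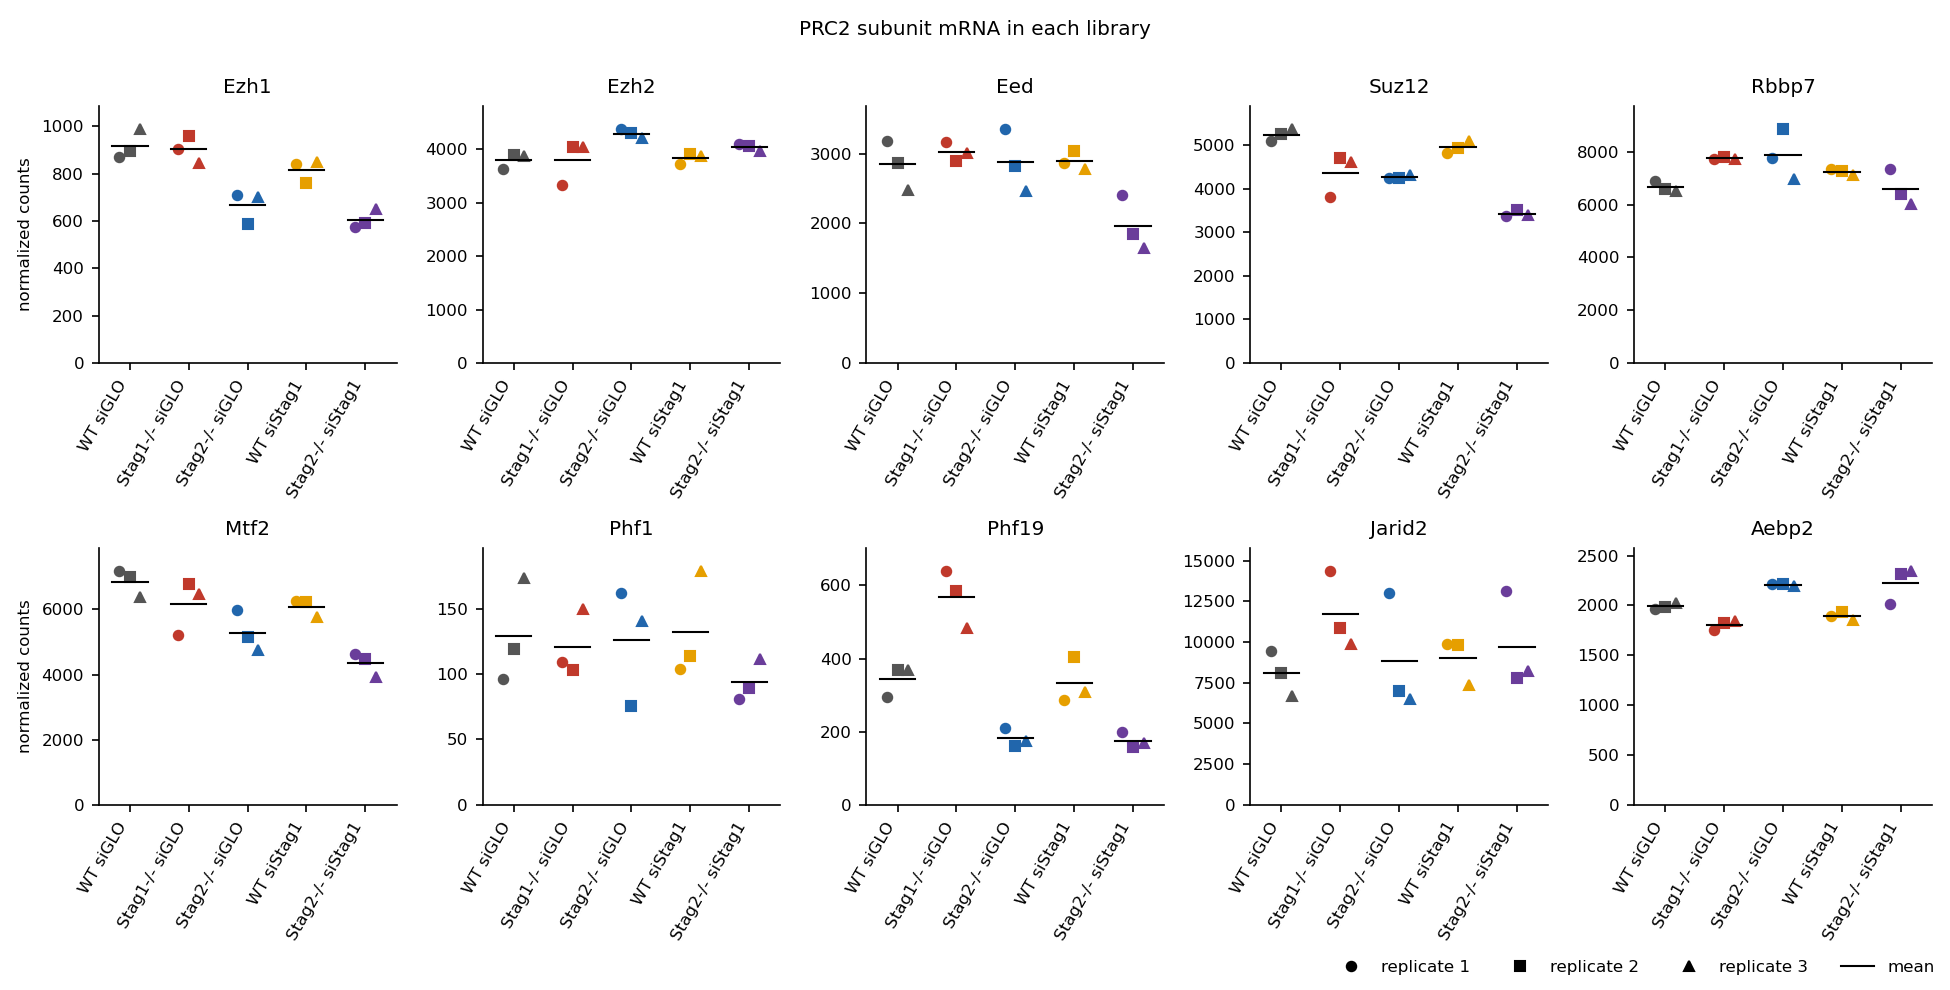
Normalized counts (vertical axes, from 0) of the 10 PRC2 subunit genes in each of the 15 libraries, with conditions along the horizontal axis, symbols for the replicate number and bars for the mean of 3. Phf19 lies at 485 to 640 in Stag1-/- siGLO and at 157 to 209 in both Stag2-/- conditions, on either side of wild-type siGLO (295 to 370), and Suz12 is lowest in Stag2-/- siStag1 (3359 to 3505).

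Of the catalytic subunits, Ezh1 fell in both Stag2-/- conditions and Ezh2 was not called against wild-type siGLO in any condition without a block. Ezh1, which encodes the paralogue that is more abundant in resting and differentiated tissues, read 871, 894 and 987 normalized counts in replicates 1, 2 and 3 of wild-type siGLO. It read 709, 588 and 702 in Stag2-/- siGLO and 574, 591 and 649 in Stag2-/- siStag1. All 6 Stag2-/- libraries were below all wild-type siGLO libraries. Ezh1 fell by 0.46 on the log2 scale in Stag2-/- siGLO (edgeR adjusted p = 0.00376, SE 0.10) and by 0.60 in Stag2-/- siStag1 (edgeR adjusted p = 0.000191, SE 0.10). Stag1-/- siGLO replicates (904, 958 and 846) overlapped the wild-type replicates, with a log2 fold change of -0.02 (95% confidence interval -0.23 to 0.18). Wild-type siStag1 libraries read 839, 759 and 849, all just under the wild-type siGLO libraries, and the difference did not pass the test (log2 fold change -0.17, adjusted p = 0.903 from edgeR).

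Ezh2, the main catalytic subunit of dividing cells, read 3638, 3895 and 3881 normalized counts in wild-type siGLO and 4379, 4301 and 4212 in Stag2-/- siGLO. The Stag2-/- siGLO libraries were all above the wild-type libraries by a small margin. The log2 fold change was 0.18 (SE 0.08), which did not pass the test across all conditions (adjusted p = 0.123 from edgeR) and passed it with the replicate number as a block (adjusted p = 0.0591 from edgeR). In Stag1-/- siGLO the Ezh2 values were 3329, 4047 and 4045, and in Stag2-/- siStag1 they were 4093, 4064 and 3963, a log2 fold change of 0.09 (95% confidence interval -0.08 to 0.25). Within a library, the ratio of Ezh1 to Ezh2 per kilobase of exon was 0.216 ± 0.0113 (SD, n = 3) in wild-type siGLO, 0.215 ± 0.0280 in Stag1-/- siGLO and 0.191 ± 0.0149 in wild-type siStag1. It was 0.139 ± 0.0144 in Stag2-/- siGLO and 0.134 ± 0.0112 in Stag2-/- siStag1. No replicate of the Stag2-/- conditions (0.123 to 0.150) reached the lowest of the other 9 libraries (0.174).

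Suz12, the scaffold that joins the core to the accessory subunits, fell in 3 of the 4 conditions. It read 5096, 5253 and 5360 normalized counts in wild-type siGLO, 3797, 4699 and 4604 in Stag1-/- siGLO, 4236, 4237 and 4303 in Stag2-/- siGLO and 3359, 3505 and 3391 in Stag2-/- siStag1. Each of these groups lay below the wild-type siGLO libraries without overlap. The log2 fold change was -0.30 in Stag2-/- siGLO (edgeR adjusted p = 0.0136, SE 0.08) and -0.62 in Stag2-/- siStag1 (edgeR adjusted p = 2.01e-05, SE 0.08). Suz12 also fell by 0.26 in Stag1-/- siGLO (edgeR adjusted p = 0.0345, SE 0.08). This last call rested on replicate 1 of Stag1-/- siGLO, without which the log2 fold change was -0.17 (adjusted p = 0.138 from edgeR), and it was also lost when only the 6 libraries compared were fitted (adjusted p = 0.117). Wild-type siStag1 libraries read 4816, 4930 and 5093, also all below wild-type siGLO, and the log2 fold change of -0.08 (95% confidence interval -0.25 to 0.08) did not pass the test.

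Eed, whose product binds trimethylated lysine 27 and stimulates the enzyme, fell in Stag2-/- siStag1 and was not called in the other conditions. Its normalized counts were 3188, 2872 and 2481 in wild-type siGLO and 2413, 1845 and 1654 in Stag2-/- siStag1. The groups did not overlap, although the lowest wild-type library stood close to the highest depleted one. Eed fell by 0.53 on the log2 scale (edgeR adjusted p = 0.00540, SE 0.13). It read 3174, 2893 and 3004 in Stag1-/- siGLO, 3352, 2822 and 2473 in Stag2-/- siGLO and 2865, 3043 and 2777 in wild-type siStag1, all overlapping wild-type siGLO. The log2 fold changes in those 3 conditions were 0.09, 0.02 and 0.02.

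Rbbp7, which encodes a histone-binding protein that also serves other chromatin complexes, rose in Stag2-/- siGLO and stood at a like level in Stag1-/- siGLO. It read 6882, 6578 and 6519 normalized counts in wild-type siGLO, 7735, 7821 and 7726 in Stag1-/- siGLO and 7783, 8863 and 6958 in Stag2-/- siGLO. All 6 knockout libraries were above all wild-type siGLO libraries. So were the wild-type siStag1 libraries (7347, 7261 and 7141), with a log2 fold change of 0.12 (95% confidence interval -0.07 to 0.31) that did not pass the test. In Stag2-/- siGLO the rise passed the test (log2 fold change 0.24, edgeR adjusted p = 0.0673, SE 0.09). That call was lost in 4 of the 6 fits that left out 1 library, the highest adjusted p being 0.301 without Stag2-/- siGLO replicate 2 (log2 fold change 0.15), and it was lost when only the libraries compared were fitted (adjusted p = 0.118). It was lost without wild-type siGLO replicate 2 or 3 and without Stag2-/- siGLO replicate 1 or 2. In Stag1-/- siGLO the log2 fold change was 0.22 (edgeR adjusted p = 0.114, SE 0.09), and it passed with the replicate number as a block (adjusted p = 0.0426 from edgeR) and in DESeq2 (adjusted p = 0.0927). Stag2-/- siStag1 libraries (7371, 6424 and 6027) spanned the wild-type values.

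**Figure D2:**
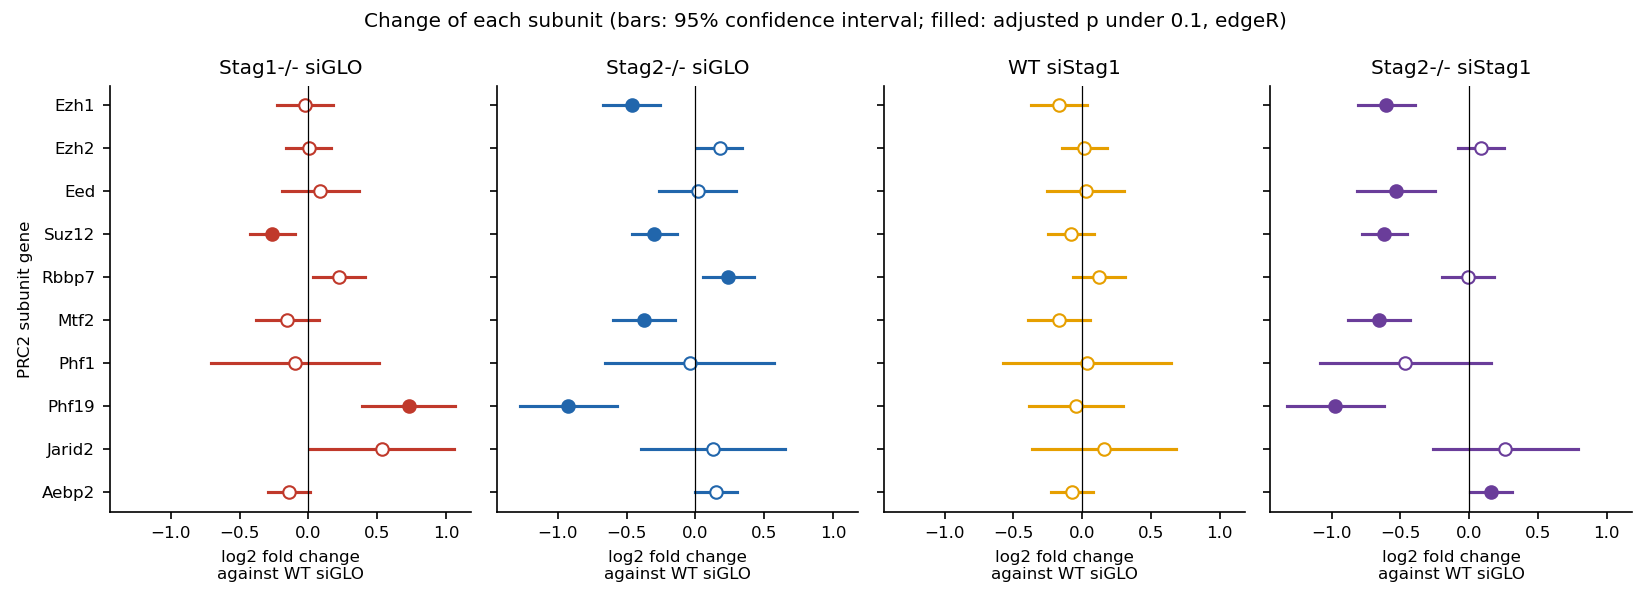
Log2 fold change against wild-type siGLO (horizontal axes) of the 10 PRC2 subunit genes (vertical axis) in the other 4 conditions, with 95% confidence intervals as bars and filled points where the adjusted p was under 0.1 in edgeR. Phf19 sits at 0.73 in Stag1-/- siGLO and at -0.92 and -0.97 in Stag2-/- siGLO and Stag2-/- siStag1, and no point is filled in wild-type siStag1.

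Phf19 changed most among the accessory subunits of PRC2.1, and in opposite directions in the knockouts. PHF19 is a Polycomb-like protein that binds methylated lysine 36 of histone H3 through its Tudor domain. Its normalized counts were 295, 368 and 370 in wild-type siGLO, 640, 585 and 485 in Stag1-/- siGLO and 209, 162 and 173 in Stag2-/- siGLO. The 3 groups did not overlap. Phf19 rose 1.66-fold in Stag1-/- siGLO (log2 fold change 0.73, edgeR adjusted p = 0.00573, SE 0.16) and fell to 0.528 of the wild-type level in Stag2-/- siGLO (log2 fold change -0.92, edgeR adjusted p = 0.00117, SE 0.17). Stag2-/- siStag1 libraries read 200, 157 and 168, level with Stag2-/- siGLO and at 0.509 of wild-type siGLO (log2 fold change -0.97, edgeR adjusted p = 0.000281, SE 0.17). Wild-type siStag1 libraries read 286, 404 and 308 and overlapped wild-type siGLO, with a log2 fold change of -0.05 (95% confidence interval -0.39 to 0.29). That interval does not reach the change of 0.73 in the Stag1-/- clone, and the difference between these conditions was not tested.

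Mtf2, which recruits PRC2 to unmethylated CpG islands, fell in both Stag2-/- conditions. It read 7182, 6987 and 6367 normalized counts in wild-type siGLO, 5971, 5154 and 4746 in Stag2-/- siGLO and 4639, 4471 and 3923 in Stag2-/- siStag1. All 6 Stag2-/- libraries were below all wild-type siGLO libraries. The log2 fold changes were -0.37 (edgeR adjusted p = 0.0221, SE 0.11) and -0.66 (edgeR adjusted p = 0.000197, SE 0.11). Stag1-/- siGLO libraries (5210, 6784 and 6479) overlapped the wild-type libraries and their log2 fold change of -0.15 did not pass the test. Wild-type siStag1 libraries (6245, 6233 and 5775) were all below wild-type siGLO, and their log2 fold change of -0.17 (95% confidence interval -0.40 to 0.06) did not pass it either. Phf1, the third Polycomb-like gene, was low in all libraries (75.4 to 179 normalized counts) and was called in no comparison. Its log2 fold changes against wild-type siGLO had a standard error of 0.29, the largest of the 10 members, and lay between -0.46 and 0.03. Within a library the ratio of Phf19 to Mtf2 per kilobase was 0.0572 ± 0.00986 (SD, n = 3) in wild-type siGLO, 0.107 ± 0.0284 in Stag1-/- siGLO and 0.0388 ± 0.00300 in Stag2-/- siGLO. In Stag2-/- siStag1, where both genes fell, it was 0.0456 ± 0.00511 and its replicates (0.0397 to 0.0488) overlapped those of wild-type siGLO (0.0464 to 0.0657).

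Of the PRC2.2 subunits, Jarid2 varied more between replicates than Aebp2, and its replicate 1 was the highest in 5 of 5 conditions. JARID2 is a Jumonji-family protein without demethylase activity that helps recruit PRC2 and stimulates it. Jarid2 read 9432, 8122 and 6691 normalized counts in replicates 1, 2 and 3 of wild-type siGLO and 14364, 10870 and 9869 in Stag1-/- siGLO. Within a condition the highest library exceeded the lowest by 1.35-fold to 2.01-fold, against 1.01-fold to 1.17-fold for Aebp2. The Stag1-/- siGLO libraries were all above the wild-type libraries, and each was above the wild-type library of the same number, by 1.52-fold, 1.34-fold and 1.47-fold. The log2 fold change of 0.53 (SE 0.25) did not pass the test without the block (adjusted p = 0.174 from edgeR) and passed it with the replicate number as a block (adjusted p = 0.00486 from edgeR). In Stag2-/- siGLO (13031, 6975 and 6471), wild-type siStag1 (9905, 9799 and 7341) and Stag2-/- siStag1 (13110, 7785 and 8219) the replicates overlapped those of wild-type siGLO. In Stag2-/- siGLO the folds over the same-numbered wild-type library were 1.38, 0.859 and 0.967, so that replicate 1 alone was higher.

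Aebp2, which encodes a zinc-finger subunit of PRC2.2 that binds nucleosomes, read 1966, 1988 and 2020 normalized counts in wild-type siGLO. It read 2219, 2213 and 2193 in Stag2-/- siGLO, 2012, 2317 and 2346 in Stag2-/- siStag1 and 1749, 1826 and 1844 in Stag1-/- siGLO. The Stag2-/- siGLO libraries were all above and the Stag1-/- siGLO libraries all below the wild-type siGLO libraries. Wild-type siStag1 libraries (1889, 1936 and 1854) were also all below wild-type siGLO, and Aebp2 was not called there. The rise in Stag2-/- siStag1 passed the test (log2 fold change 0.16, edgeR adjusted p = 0.0937, SE 0.07), although replicate 1 lay within the wild-type range. That call was lost in 5 of the 6 fits that left out 1 library (adjusted p up to 0.283, without Stag2-/- siStag1 replicate 3), and it held when Stag2-/- siStag1 replicate 1 was left out. In Stag2-/- siGLO the log2 fold change of 0.15 (edgeR adjusted p = 0.154, SE 0.07) passed with the replicate number as a block (adjusted p = 0.0861 from edgeR), and in Stag1-/- siGLO it was -0.14 (adjusted p = 0.221). The summed level of Jarid2 and Aebp2 over that of Mtf2, Phf1 and Phf19, per kilobase, was 0.789 ± 0.0749 (SD, n = 3) in wild-type siGLO and 1.48 ± 0.272 in Stag2-/- siStag1. It was 1.15 ± 0.338 in Stag1-/- siGLO and 1.11 ± 0.230 in Stag2-/- siGLO. The libraries of both knockouts (0.943 to 1.54) were above those of wild-type siGLO (0.721 to 0.869), whereas wild-type siStag1 (0.838 to 1.02) overlapped them. Most of the sums came from Jarid2 (832 per kilobase in wild-type siGLO, against 202 for Aebp2) and Mtf2 (1201, against 68.3 for Phf19 and 37.1 for Phf1). Replicate 1 had the highest ratio in each condition, as it had for Jarid2.

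**Figure D3:**
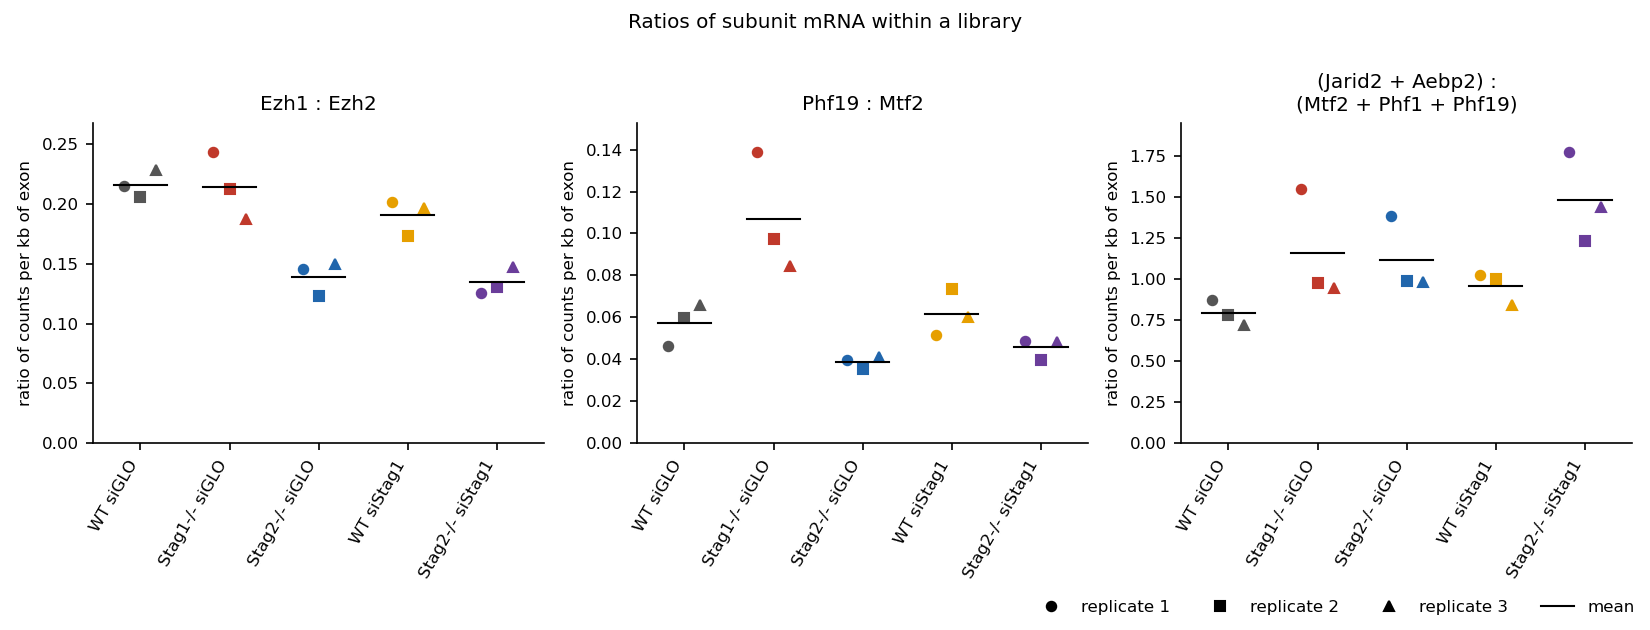
Ratios of normalized counts per kilobase of exon (vertical axes, from 0) between PRC2 subunit genes in each of the 15 libraries, with conditions along the horizontal axis, symbols for the replicate number and bars for the mean. Ezh1 over Ezh2 is at 0.123 to 0.150 in the Stag2-/- conditions and at 0.174 or more elsewhere. The ratio of PRC2.2 to PRC2.1 accessory genes has its highest mean in Stag2-/- siStag1 (1.23 to 1.77), whose libraries overlap those of Stag1-/- siGLO (0.943 to 1.54) and Stag2-/- siGLO (0.979 to 1.38).

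Stag1-/- siGLO and Stag2-/- siGLO cells were compared directly to test whether the knockouts differed. Of the 10 members 3 were called, 2 higher in Stag1-/- (Phf19 and Ezh1) and 1 lower (Aebp2), where 25.7% of all genes were called, 12.7% higher and 12.9% lower. Phf19 was 3.14-fold higher in Stag1-/- siGLO than in Stag2-/- siGLO (log2 fold change 1.65, edgeR adjusted p = 9.2e-06, SE 0.17). Ezh1 was 1.35-fold higher (log2 fold change 0.44, edgeR adjusted p = 0.00571, SE 0.10), and Aebp2 was lower by a log2 fold change of -0.29 (edgeR adjusted p = 0.0109, SE 0.07). None of the 3 pairs of groups overlapped. With the replicate number as a block 6 members were called (37.3% of all genes), the others being Jarid2 (log2 fold change 0.45, adjusted p = 0.0112 from edgeR), Mtf2 (0.22, adjusted p = 0.0819) and Ezh2 (-0.18, adjusted p = 0.0609). Without Stag2-/- siGLO replicate 1, the library with the high Jarid2 value, 5 members were called without a block, where 3335 of 14725 genes tested were called. Suz12, which fell in both knockouts, did not differ detectably between them (log2 fold change 0.04, 95% confidence interval -0.13 to 0.20).

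Depletion of STAG1 in Stag2-/- cells, compared with the same clone under siGLO, lowered 2 core subunits. Eed and Suz12 were called, both lower, where 6.37% of all genes were called and 3.39% were lower. Eed went from 3352, 2822 and 2473 to 2413, 1845 and 1654 normalized counts, and Suz12 from 4236, 4237 and 4303 to 3359, 3505 and 3391, both without overlap. Eed fell by 0.55 on the log2 scale (edgeR adjusted p = 0.0297, SE 0.13) and Suz12 by 0.32 (edgeR adjusted p = 0.0327, SE 0.08). The call for Eed was lost without Stag2-/- siGLO replicate 1 (adjusted p = 0.116), without Stag2-/- siStag1 replicate 2 (0.120) or replicate 3 (0.160), and with only the libraries compared (0.214), and that for Suz12 was lost without Stag2-/- siStag1 replicate 3 (0.119). With the replicate number as a block 4 members were called (14.1% of all genes), all lower, with Mtf2 (log2 fold change -0.28, adjusted p = 0.0694 from edgeR) and Rbbp7 (-0.25, adjusted p = 0.0458) added. DESeq2 called 3 members, with Rbbp7 added (adjusted p = 0.0951), where it called 1191 of 14633 genes. Phf19 and Ezh1, which were already low in Stag2-/- siGLO, had log2 fold changes of -0.05 (95% confidence interval -0.41 to 0.31) and -0.14 (-0.35 to 0.07).

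The effect of siStag1 in Stag2-/- cells minus that in wild-type cells was called for no member without a block by edgeR or by DESeq2, where 23 genes in all (0.159%) were called, and 3 members had an unadjusted p under 0.05 (Eed, Rbbp7 and Suz12, all with a negative difference). For Eed the difference was -0.57 on the log2 scale (edgeR adjusted p = 0.516, SE 0.19), and it was called without Stag2-/- siStag1 replicate 1 (-0.75, adjusted p = 0.0780). With the replicate number as a block Eed was called (-0.59, edgeR adjusted p = 0.0472, SE 0.13), the 1 member that was, where 138 genes in all (0.951%) were called. The siRNA lowered its own target by 2.28 on the log2 scale in wild-type cells and by 1.53 in Stag2-/- cells. This difference for Stag1 was 0.75 (edgeR adjusted p = 0.254, SE 0.19, unadjusted p = 0.00115), and its part in the members' differences was not tested.

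**Figure D4:**
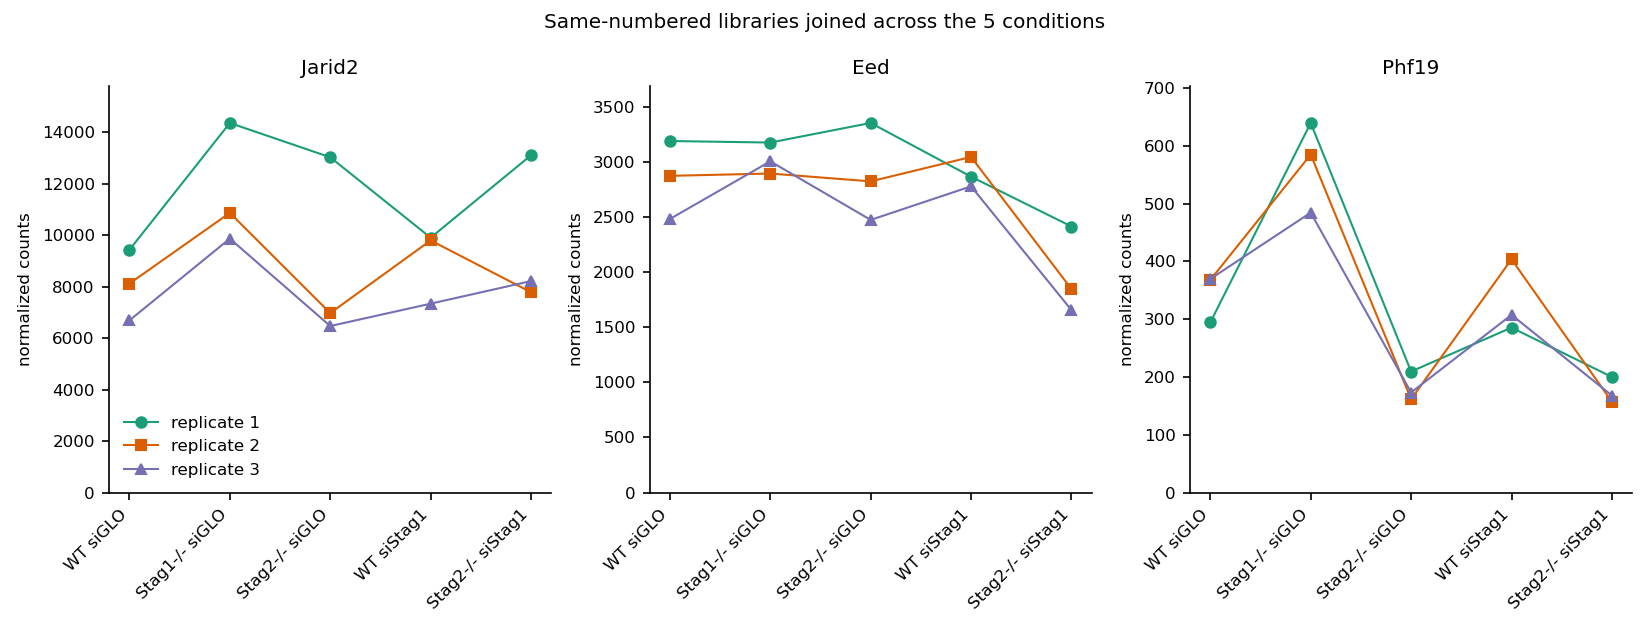
Normalized counts (vertical axes, from 0) of Jarid2, Eed and Phf19 in the 5 conditions (horizontal axis), with lines joining the libraries that carry the same replicate number. Jarid2 is highest in replicate 1 in 5 of 5 conditions, Eed falls in each of the 3 replicates between Stag2-/- siGLO and Stag2-/- siStag1, and the 3 lines of Phf19 rise and fall together between the knockouts.

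The other genes of the PRC2 system were read from a list of 5. Rbbp4, the paralogue of Rbbp7, and Epop, Lcor and Lcorl, which encode accessory proteins of PRC2.1, were called in no comparison by edgeR or by DESeq2, and of these only Lcor reached an unadjusted p under 0.05 (0.0344, in Stag2-/- siGLO). Ezhip, listed in the files as AU022751, encodes an inhibitor of PRC2 that resembles the lysine-27-to-methionine form of histone H3, and it was the only one of the 5 to be called. It read 49.6, 35.6 and 72.6 normalized counts in wild-type siGLO, 86.8, 56.0 and 65.5 in Stag2-/- siGLO and 232, 172 and 181 in Stag2-/- siStag1. The Stag2-/- siStag1 libraries were above all others. AU022751 rose 3.69-fold against wild-type siGLO (log2 fold change 1.89, edgeR adjusted p = 3.7e-05, SE 0.26) and by 1.49 against Stag2-/- siGLO (edgeR adjusted p = 0.00279, SE 0.25). In wild-type siStag1 (97.9, 78.2 and 101) it lay above wild-type siGLO without overlap, and the log2 fold change of 0.81 did not pass the test (adjusted p = 0.440 from edgeR). AU022751 was lower in Stag1-/- siGLO than in Stag2-/- siGLO (log2 fold change -1.03, adjusted p = 0.0163 from edgeR).

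Enzymes that act on the same lysine were read from further lists. In Stag2-/- siStag1 cells, where 43.9% of all genes were called and 22.6% were higher, the acetyltransferases Crebbp and Ep300, whose mark excludes methylation of lysine 27, both rose (2 of 2 tested), Crebbp by 0.83 on the log2 scale (adjusted p = 3.8e-05 from edgeR) and Ep300 by 0.30 (adjusted p = 0.00801). Crebbp also rose in Stag2-/- siGLO (0.53, adjusted p = 0.00377 from edgeR). Of the 3 demethylase-family genes, Kdm6b and Kdm6a rose in Stag2-/- siStag1 (0.41, adjusted p = 0.00591 and 0.19, adjusted p = 0.0887 from edgeR) and the Y-linked paralogue Uty fell (-2.92, adjusted p = 0.000998). Uty also fell in Stag2-/- siGLO (-1.36, adjusted p = 0.0600 from edgeR). Its raw counts were few, 20, 33 and 12 in wild-type siGLO, 5, 10 and 8 in Stag2-/- siGLO and 3, 2 and 3 in Stag2-/- siStag1, so the size of its falls is uncertain. In Stag1-/- siGLO cells Kdm6b fell by 0.34 (adjusted p = 0.0380 from edgeR). Of the 11 methyltransferases of lysines 4 and 36 of histone H3, whose marks oppose PRC2, 10 were tested. In Stag2-/- siStag1 cells 3 rose and 1 fell, 4 of 10 against 43.9% of all genes, with Setd1b at 0.93 (adjusted p = 0.000982 from edgeR) and Kmt2c, listed as Mll3, at -0.44 (adjusted p = 0.00532). In Stag2-/- siGLO cells, where 28.3% of all genes were called, 2 rose and 1 fell, Setd1b at 0.83 (adjusted p = 0.00503 from edgeR), Whsc1 at 0.39 (adjusted p = 0.0903) and Mll3 at -0.27 (adjusted p = 0.0904). In Stag1-/- siGLO cells, where 20.0% of all genes were called, Mll3 alone of the 10 was called (-0.36, adjusted p = 0.0383 from edgeR). None of these 15 genes was called in wild-type siStag1 by edgeR or by DESeq2, and 1 (Mll3) had an unadjusted p under 0.05.

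Developmental genes that are textbook targets of PRC2 in mESCs moved in both directions. Of a list of 30 such genes 23 were tested, and not all were silent in wild-type siGLO, where the mean was 929 normalized counts for Gata4, 561 for Olig2, 489 for Gata6 and 440 for Sox1 (named after their values were seen). Of these, 4 rose and 6 fell in Stag1-/- siGLO (20.0% of all genes called), 4 rose and 6 fell in Stag2-/- siGLO (28.3%), and 5 rose and 7 fell in Stag2-/- siStag1 (43.9%), with medians over the list of -0.31, -0.15 and -0.0016 on the log2 scale against -0.01, 0.01 and 0.01 over all genes. Hoxb1 and Pax3 were under 10 counts in each wild-type siGLO library and passed the filter on low counts through other conditions, and they are 2 of the 4 that rose in Stag2-/- siGLO and 2 of the 5 in Stag2-/- siStag1. Hand1, a regulator of extraembryonic and heart tissue, rose in Stag1-/- siGLO from 18.7, 27.5 and 11.6 to 100.4, 84.7 and 75.9 normalized counts (log2 fold change 2.17, adjusted p = 0.00904 from edgeR). Pax6, a neural regulator, rose in Stag2-/- siStag1 from 74.8, 37.6 and 40.7 to 364, 633 and 719 (log2 fold change 3.48, adjusted p = 8.7e-07 from edgeR). The largest falls were those of endoderm regulators that were transcribed in wild-type siGLO. Sox17, at 259 to 268 normalized counts there, had a log2 fold change of -4.10 in Stag1-/- siGLO (adjusted p = 2.7e-06 from edgeR) and of -2.95 in Stag2-/- siStag1 (adjusted p = 7.2e-06). Between Stag1-/- and Stag2-/- siGLO cells 12 of the 23 differed, 4 higher and 8 lower in Stag1-/-, where 25.7% of all genes were called.

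Markers of cell state moved with several of these results, and their part in them was not tested. In bulk RNA, fewer cells of a type and less RNA per cell cannot be told apart. All 6 mESC markers fell in Stag2-/- siStag1 against wild-type siGLO, where Ezh1, Eed, Suz12, Mtf2 and Phf19 fell too. Their summed normalized counts were 27472.5 to 30491 there, against 53964 to 60225 in wild-type siGLO, and in Stag2-/- siGLO 3 of 6 fell with a sum of 43202 to 49417. In Stag1-/- siGLO, where Phf19 rose and Suz12 fell, 1 of 6 fell (Pou5f1) with a sum of 43574 to 50651. In wild-type siStag1 the sum was 48059 to 49082, and 0 of 6 were called by edgeR or by DESeq2, with 3 at an unadjusted p under 0.05. Between Stag2-/- siStag1 and Stag2-/- siGLO, where Eed and Suz12 fell, 5 of 6 mESC markers fell (median log2 fold change -1.30, 6.37% of all genes called), as did the trophoblast marker Tfap2c and 2 of 14 genes of S phase and E2F control (E2f1 and Cdc6). For the difference between siStag1 effects 2 of 6 mESC markers were called (Esrrb and Klf4, both with a negative difference). Between Stag1-/- and Stag2-/- siGLO, where Phf19, Ezh1 and Aebp2 differed, 25.7% of all genes were called. Of the mESC markers 3 of 6 were higher in Stag1-/- and 1 (Pou5f1) was lower, and of the primitive endoderm markers 4 of 5 were lower. Of 3 trophoblast markers tested 2 were higher (Krt8 and Tfap2c), and of 3 neural markers tested 2 were lower (Sox1 and Pax6). Of 14 S phase and E2F genes 2 were higher and 1 lower, and 0 of 4 fibroblast markers were called. The 5 primitive endoderm markers fell in both knockouts and in Stag2-/- siStag1 (5 of 5 each), from a sum of 3794 to 4154 in wild-type siGLO to 316 to 509.8 in Stag1-/- siGLO, 704 to 1111 in Stag2-/- siGLO and 827 to 1092 in Stag2-/- siStag1. Of these 5 markers 3 (Gata4, Gata6 and Sox17) are also among the PRC2 targets counted above, as are 1 of the trophoblast markers (Cdx2) and 2 of the neural markers (Sox1 and Pax6). Trophoblast markers, 3 of 4 tested, summed to 3761 to 6050 in Stag1-/- siGLO, where Phf19 was high and 2 of them rose, against 2364 to 2918 in wild-type siGLO and 906 to 1554 in Stag2-/- siStag1, where 2 fell. Of these 3 markers Tfap2c fell in Stag2-/- siGLO. Fibroblast markers, 4 of 5 tested, were low in all conditions (254 to 636) with 2 higher in Stag2-/- siStag1, where Postn was at 0, and 1 (Col3a1) higher in Stag2-/- siGLO. The Col3a1 counts were highest in replicate 1 of both Stag2-/- conditions (96.3, 21.6 and 8.45 in Stag2-/- siGLO and 84.8, 21.8 and 9.10 in Stag2-/- siStag1, against 4.67, 10.2 and 14.5 in wild-type siGLO). Neural markers, 3 of 4 tested, summed to 1874 to 2893 in Stag2-/- siGLO, where 2 rose, against 1231 to 1953 in wild-type siGLO. They summed to 1250 to 1502 in Stag1-/- siGLO, where Sox1 fell, and to 1570 to 2764 in Stag2-/- siStag1, where Pax6 rose. Of 14 genes of S phase and E2F control, 2 rose (Mki67 and Top2a) and 3 fell (Rrm2 and Mcm5 the most) in Stag1-/- siGLO, where 20.0% of all genes were called. In Stag2-/- siGLO, where 28.3% of all genes were called, 0 were called by edgeR or by DESeq2 and 0 had an unadjusted p under 0.05. In Stag2-/- siStag1 4 fell, where 43.9% of all genes were called.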

How the data were processed

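Polyadenylated RNA of mESCs was sequenced in 15 libraries, 3 in each of 5 conditions. The authors aligned the reads to mm10 with STAR, as their processing notes state, and deposited raw counts per gene symbol. The counting tool, annotation and strand setting are not given in the sources used here. The 4 summary lines beside the 23412 genes were left out of library sizes and tests. The authors used DESeq2 for their own calls.

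Groups and replicate numbers came from the sample titles. The test was that of edgeR 4.0.16 under R 4.3.3 (filterByExpr by condition with a minimum count of 10 and a minimum total of 15, TMM, then glmQLFit on all 15 libraries with the condition as the only term, two-sided glmQLFTest), with Benjamini-Hochberg adjustment over the 14508 genes tested and a threshold of 0.1. The 7 comparisons were each of 4 conditions against wild-type siGLO, Stag1-/- against Stag2-/- siGLO, the effect of siStag1 within Stag2-/- cells, and that effect minus the one in wild-type cells. DESeq2 1.42.0 was an alternative. The SE is the size of the log2 fold change divided by the square root of F. At these depths 3 counts correspond to 0.157 to 0.200 CPM, which covers counting error only. The test without a block was also run on simulated counts for the comparison of Stag1-/- with wild-type siGLO. The simulation took its means and spreads from these data, and its outcome is not given here. Levels per kilobase used the union of exons in GENCODE M21 (mm10). Promoter sequences are those of RefSeq on GRCm38.p6, in which all 10 members matched, with 14 entries, and the first entry of a gene is shown.

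Same-numbered libraries deviated from their condition means together. Over 11530 genes, the correlation was above 0.1 in all 3 pairs of Stag1-/- against wild-type siGLO (0.260 to 0.365), Stag2-/- against wild-type siGLO (0.129 to 0.534), wild-type siStag1 against wild-type siGLO (0.266 to 0.597), Stag1-/- against Stag2-/- siGLO (0.266 to 0.316) and Stag2-/- siStag1 against Stag2-/- siGLO (0.301 to 0.765). The pairing is therefore read from the numbers in the labels, and what a number stands for is not given. Over all pairs of conditions, 27 of 30 same-numbered pairs and 8 of 60 other pairs correlated above 0.1. The highest of the other pairs was Stag2-/- siGLO replicate 3 with Stag2-/- siStag1 replicate 2 (0.475). The members, the gene lists and the tests were chosen with earlier results of these data known. All members are named, and from the other lists at most 2 called genes a direction and comparison, those with the most extreme log2 fold changes, apart from genes named to account for a small count. A chi-square comparison of replicates found no duplicated library. Plots were made in Python 3.11.15 (matplotlib 3.10.9).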

Additional observations from a re-analysis of the deposited data

Results flagged for a closer look

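The effect of losing STAG1 and that of losing STAG2, each against wild-type siGLO, differed at 3 PRC2 subunit genes in the direct comparison of Stag1-/- with Stag2-/- siGLO cells, 3 of 10 where 25.7% of all genes were called. Phf19 differed by 1.65 on the log2 scale (edgeR adjusted p = 9.2e-06, SE 0.17), with all 3 Stag1-/- libraries above and all 3 Stag2-/- libraries below the wild-type range. Ezh1 differed by 0.44 (edgeR adjusted p = 0.00571, SE 0.10) and Aebp2 by -0.29 (edgeR adjusted p = 0.0109, SE 0.07). All 3 differences were called in each of the 6 fits that left out 1 library, with Phf19 between 1.56 and 1.77. Markers of mESCs, primitive endoderm, trophoblast and neural cells also differed in this comparison, and their part in these differences was not tested. Each genotype is 1 clone, so the effect of the gene and that of the clone cannot be told apart.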

How the results depend on the processing

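No log2 fold change of a member called with or without the block changed sign in any alternative run (28 pairs of member and comparison), and of 18 calls 13 held in each of them. With the replicate number as a block, members called went from 2 to 4 for Stag1-/- against wild-type siGLO, from 3 to 6 for Stag1-/- against Stag2-/- siGLO and from 2 to 4 for Stag2-/- siStag1 against Stag2-/- siGLO. It changed no other call of these comparisons than those given in the report. For Stag2-/- siStag1 against wild-type siGLO and for the difference between siStag1 effects not all same-numbered pairs correlated above 0.1 (lowest 0.0457 and -0.0937), so the numbers are not taken to pair these samples. There the block gave 6 members, as without it, and 1 (Eed, adjusted p = 0.0472 from edgeR, against 0 without it). With only the libraries compared, 1 member was called in Stag2-/- siStag1 against Stag2-/- siGLO. With 1 library left out, counts of members ranged from 1 to 2 for Stag1-/- and 4 to 5 for Stag2-/- against wild-type siGLO, 5 to 6 for Stag2-/- siStag1 against wild-type siGLO, 3 to 5 between the knockouts, 0 to 3 for Stag2-/- siStag1 against Stag2-/- siGLO and 0 to 1 for the difference between siStag1 effects. Over all genes, calls for wild-type siStag1 were 36, 133 by DESeq2, 236 with the block and 1 to 15 with 1 library left out, and for Stag2-/- siStag1 against Stag2-/- siGLO they were 924, 224 with only the libraries compared and 416 to 1484 with 1 of its Stag2-/- siStag1 libraries left out. For the difference between siStag1 effects they were 23, 102 by DESeq2, 138 with the block and 13 to 76 with 1 library left out, the 76 without Stag2-/- siStag1 replicate 1. For Stag1-/- and Stag2-/- against wild-type siGLO they were 2907 and 4110, and 1915 and 2524 without wild-type siGLO replicate 2.

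Without division by exon length, the ratio of Ezh1 to Ezh2 became 0.241 in wild-type and 0.155 in Stag2-/- cells under siGLO and 0.212 and 0.150 in them under siStag1, that of Phf19 to Mtf2 became 0.0343 and 0.0404 in Stag2-/- siGLO and Stag2-/- siStag1, and that of PRC2.2 to PRC2.1 accessory genes became 1.37, 2.02, 1.94, 1.66 and 2.58, first in the siGLO conditions (wild-type, Stag1-/- and Stag2-/-) and then in the siStag1 conditions (wild-type and Stag2-/-). Depth limits Phf1 most, with raw counts of 70 to 185 per library.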

Other observations

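Epop, an accessory gene of PRC2.1 that the files list as E130012A19Rik, was highest in replicate 1 in 5 of 5 conditions, as was Jarid2. Its normalized counts in replicates 1, 2 and 3 were 5050, 3694 and 2648 in wild-type siGLO, 5336, 3228 and 3364 in Stag1-/- siGLO and 4706, 4508 and 3130 in Stag2-/- siGLO. They were 4119, 3645 and 2792 in wild-type siStag1 and 3944, 2638 and 2525 in Stag2-/- siStag1. The highest library of a condition exceeded the lowest by 1.48-fold to 1.91-fold for E130012A19Rik and by 1.35-fold to 2.01-fold for Jarid2. Suz12 was lowest in replicate 1 and Rbbp7 lowest in replicate 3 in 5 of 5 conditions. These genes were chosen for this description after their values were seen, and what the numbers stand for is not given.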
